A study of Mus musculus with 2 samples.

Results

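Hair follicle keratinocytes (KCs) in which transcripts of Lhx2 and Sox9 were captured, but none of Shh, were picked out of single-cell RNA sequencing (scRNA-seq) libraries of the epidermis from 2 newborn knockout (KO) mice. A cell belonged to them if it had at least 3 unique molecular identifiers (UMIs, each of which marks 1 captured transcript) of Lhx2, at least 1 of Sox9 and 0 of Shh. It also had at most 2 UMIs of Krt79, at most 2 of Cenpf, Ccnb1 and Ube2c together, and under 0.8% of its UMIs from Krt1 and Krt10. Of the 19488 cells that passed the filter on cells (900 to 7700 genes and under 10% mitochondrial UMIs), 1981 (10.2%) met the rule. KO mouse 1 gave 815 of its 7607 cells (10.7%, 95% exact binomial interval 10.0 to 11.4), and KO mouse 2 gave 1166 of 11881 (9.81%, 9.28 to 10.4), or 10.3% ± 0.636 (SD, n = 2 mice). The limits on Lhx2, Sox9, Shh, Krt79, the cycling genes and the suprabasal keratins chose the cells, so the levels of these genes are given as a description.

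The libraries were made from epidermis of newborn (postnatal day 0) male C57BL/6J mice. The KO removed Chrm3, which encodes an acetylcholine receptor of the muscarinic class, and dead cells had been removed from the suspensions. There was 1 library for each of 2 KO mice, and wild-type libraries were not analysed here, so no effect of the genotype can be read from any value. The labels do not say in which cells or by which allele Chrm3 was deleted. Among the 1981 cells, those of KO mouse 1 held 0 UMIs of Chrm3, with an exact 95% Poisson interval of 0 to 0.402 counts per 1000000 UMIs (CPM), and those of KO mouse 2 held 2, or 0.142 CPM (0.0172 to 0.513). These counts cannot show from which stretch of the gene such transcripts came.

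Hair follicles grow down from the epidermis around birth, and their epithelium is organised along the length of the follicle. Cells at the lower tip, the matrix and its precursors, secrete Shh and answer strongly to Wnt and Bmp signals, and they give rise to the inner root sheath and the hair shaft. Cells above and around them, which become the outer root sheath and the stem cell niche of the bulge, are known for the transcription factors Lhx2, Sox9, Tcf7l1 and Nfatc1 and answer to the Shh that their neighbours release. The upper follicle expresses Krt79 and gives rise to the sebaceous gland, and the interfollicular epidermis (IFE) between the follicles is fed by its own basal KCs.

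The cells were set beside 3 other groups cut from the same libraries under the same limits on cycling genes and suprabasal keratins. Lhx2/Sox9 cells with Shh met every limit except that they had at least 2 Shh UMIs, and numbered 38 in KO mouse 1 and 55 in KO mouse 2. Krt79 cells, 564 and 701, had at least 3 UMIs of Krt79, at most 2 of Lhx2 and 0 of Shh. Resting basal IFE cells, 1012 and 1595, had 0 UMIs of Lhx2, Sox9, Shh and Krt79 and at least 1% of their UMIs from Krt5 and Krt14.

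The Lhx2/Sox9 cells without Shh held per cell a median of 10521 UMIs in KO mouse 1 and 10662 in KO mouse 2, close to the medians of all cells kept (10480 and 10577), with 3163 and 3186 genes detected. Their counts summed to 9182360 and 14073094 UMIs. The cells with Shh were fewer and deeper, with medians of 12368 and 12068 UMIs, and their sums of 528270 and 777753 UMIs limit the comparison with them. Scrublet, which scores cells against simulated pairs of cells, called 23 (2.82%) and 65 (5.57%) of the 815 and 1166 cells doublets, and these were kept. The libraries shared 127 deposited barcodes. None of these barcodes was a Lhx2/Sox9 cell without Shh in both libraries, and 9 such cells had a barcode that also occurred in the other library. Intervals on UMIs and on shares of cells cover counting error only.

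The label of follicle KCs was checked against Lhx2, Sox9 and Krt17, of which Krt17, a keratin of the outer root sheath, had no part in the rule. Krt17 was found in 100% and 99.8% of the cells in the 2 mice, against 43.4% and 57.5% of the cells with at least 10 melanocyte UMIs (medians of 9084 and 10083 UMIs), which should lack it. Its level was 2416 and 2484 normalised CPM (the UMIs of a group summed per mouse and scaled by edgeR's TMM method) and its median per cell was 23 and 24 UMIs. Krt17 was not particular to these cells among KCs, since it stood at 5059 and 3229 CPM in the Krt79 cells and 1278 and 1183 in the resting basal IFE cells, and its difference from the latter was not detectable with the limit on mitochondrial UMIs at 5%. The cells are therefore called by the genes of the rule.

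Markers of suprabasal KCs were the most abundant among those of other cell types. The 6 suprabasal markers, 2 of which are in the rule, came to 1297 and 2161 CPM, higher in KO mouse 2. Summed over the 7 melanocyte markers, the cells held 72.4 and 58.0 CPM, with Dct the most abundant (27.7 and 21.9). The 7 dermal fibroblast markers came to 89.1 and 96.8 CPM, mostly Vim (73.8 and 82.6), and Dpt and Pdgfra were at 0. The 6 Langerhans cell markers came to 36.4 and 45.6 CPM, led by Cd74 (25.05 and 16.2). T cell markers came to 0.871 and 0.853 CPM with Cd3d at 0, Merkel cell markers to 5.23 and 2.34 with Atoh1 and Sox2 at 0, and endothelial markers to 28.6 and 29.4, nearly all Egfl7, with Cdh5, Kdr and Tie1 at 0. The inner root sheath and shaft markers came to 50.9 and 63.0 CPM, led by Krt71 (18.5 and 16.6). The 6 sebocyte markers came to 25.5 and 21.7 CPM, against 3526 and 2821 in the Krt79 cells. In the cells with Shh the melanocyte markers came to 89.0 and 189 CPM, in the Krt79 cells to 77.2 and 293, and in the resting basal IFE cells to 56.5 and 84.7. Without the cells that held at least 10 melanocyte UMIs, 454, 5519 and 4456 genes were called in the 3 comparisons, in place of 443, 5506 and 4443, and none of the 59, 87 and 90 genes followed changed its call or direction. The part of the other marker lists, beyond that of the sub-cluster with Langerhans cell genes described with the sub-clusters, was not tested.

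At the limit on Lhx2 the values passed gradually from one side to the other. Tbx1, a T-box transcription factor, stood at 113 and 100.1 CPM in KO mouse 1 and KO mouse 2 in the 416 cells with exactly 3 Lhx2 UMIs. In the 440 cells that met all other limits but had 2 Lhx2 UMIs it stood at 99.2 and 80.6, in the 579 with 1 at 65.7 and 46.2, and in the 1519 with none at 8.42 and 9.83. Lgr5, a receptor for R-spondins, went the same way, from 109 and 74.6 CPM at 3 Lhx2 UMIs to 72.7 and 66.7 at 2 and 11.3 and 9.26 at none. Krt17 stayed between 2359 and 2935 CPM across these classes in both mice, and Krt5 was highest in the cells without Lhx2 (5195 and 5287). Depth differed little from 0 to 3 Lhx2 UMIs (medians of 8405 to 9370 UMIs per cell in the 2 mice), whereas cells with 6 or more Lhx2 UMIs held medians of 11896 and 12552.

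**Figure D1:**
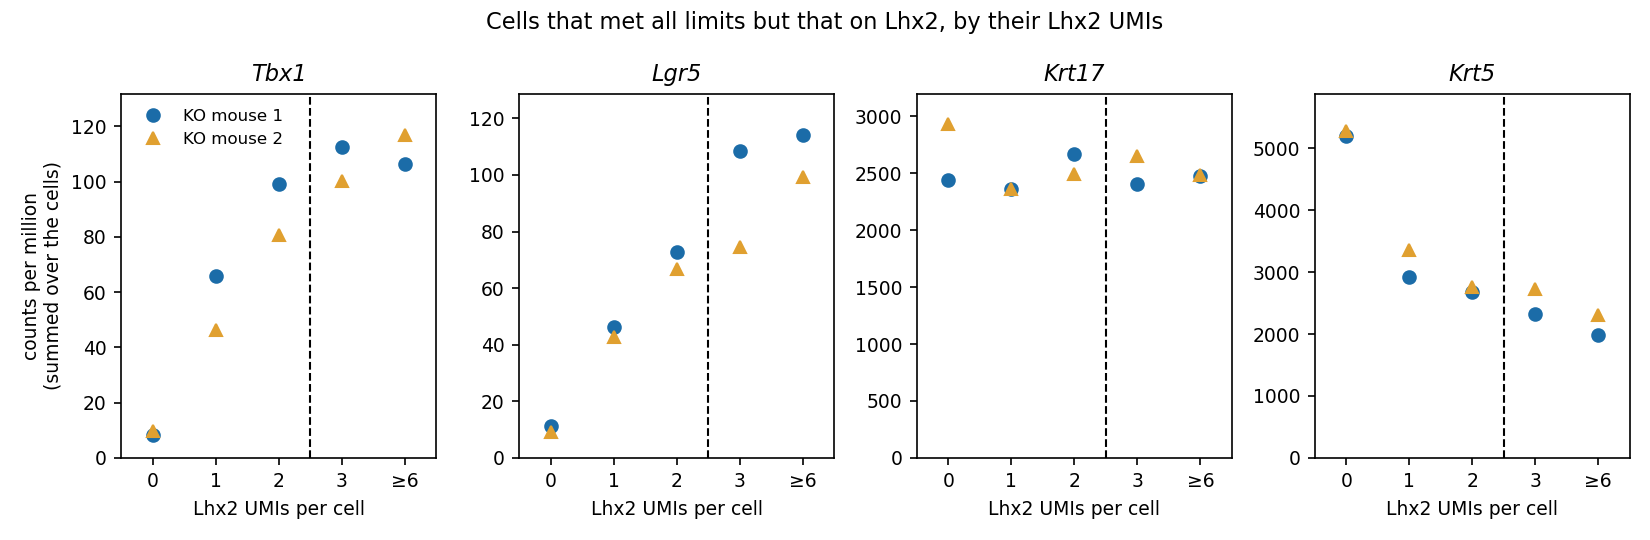
CPM (vertical axes, from 0) of Tbx1, Lgr5, Krt17 and Krt5 in the cells that met every limit except that on Lhx2, by the number of Lhx2 UMIs per cell (horizontal axes; 4 and 5 UMIs are not drawn), with KO mouse 1 as circles, KO mouse 2 as triangles and the limit of the rule as a dashed line. Tbx1 and Lgr5 are higher at 3 Lhx2 UMIs than at none in both mice, Krt5 is highest at none, and Krt17 stays between 2359 and 2935 CPM.

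At the limit on Sox9, Krt17 and Nfatc1 changed by a clear step in both mice. With 3 or more Sox9 UMIs Krt17 stood at 2668 and 2771 CPM and Nfatc1 at 96.7 and 79.1. Krt17 stood at 2368 and 2376 CPM in the 656 cells with exactly 1 Sox9 UMI and at 1613 and 1570.4 in the 1002 that met all other limits but had none, and Nfatc1 at 53.1 and 56.8 against 17.5 and 21.4. The 74 cells left out for a single Shh UMI had Tbx1 at 26.03 and 66.5 CPM, between the levels without Shh and those with at least 2 Shh UMIs. In KO mouse 1 the value was nearer to the level with at least 2 Shh UMIs. The limit on cycling genes left out 993 cells, whose Tbx1 (92.96 and 84.1 CPM) and Krt17 (2004 and 1992) lay somewhat below those of the cells kept. The limit on Krt1 and Krt10 left out 8.

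Of the genes that made the rule, Lhx2 (chromosome 2, 38339281 to 38369733, plus strand, GRCm38) ranged from 3 to 24 UMIs per cell in KO mouse 1 and from 3 to 36 in KO mouse 2, with a median of 5 in both. Sox9 (chromosome 11, 112782224 to 112787760, plus strand) ranged from 1 to 19 and from 1 to 29, with a median of 2. As normalised CPM, Lhx2 was at 537 and 509 and Sox9 at 253 and 219 in KO mouse 1 and KO mouse 2. In the cells with Shh, Lhx2 was at 694 and 727 and Sox9 at 127 and 127. Krt79 was at 31.8 and 37.8 CPM against 9711 and 5290.0 in the Krt79 cells. Krt5 and Krt14, the basal keratins, were at 2100.2 and 2431 and at 2589 and 3217 CPM, against 8616 and 8271 and 16996 and 17328 in the resting basal IFE cells that were chosen by them.

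Few genes differed much between the 2 mice. Of 2966 genes with at least 50 CPM in either mouse, 10 differed by more than 2 times. Ccer2 differed most, with 95.6 and 2.64 CPM, with 42.1 and 2.53 in the Krt79 cells, but 3.48 and 2.42 in the cells with Shh and 2.61 and 3.19 in the resting basal IFE cells. Fosb (60.4 and 18.8), Btg2 (298 and 112), Fos (276 and 109.7) and Klf6 (114 and 56.2), which are immediate early genes switched on within minutes of a stimulus, were higher in KO mouse 1. Stfa3 (83.2 and 236), BC100530 (67.9 and 186), Stfa1 (38.3 and 94.2), Krtdap (142 and 338) and Krt1 (219 and 502) were higher in KO mouse 2. A difference between single animals has no replicate, so no test was made.

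UMI counts were summed per mouse and group, and the 8 sums were fitted together by the quasi-likelihood method of edgeR. A gene was called in a comparison at a Benjamini-Hochberg adjusted p under 0.05, and calls were counted over the 12569 genes outside the rules. A log2 fold change above 0 is higher in the Lhx2/Sox9 cells without Shh, and its error is the SE of the fit. Against the cells with Shh, 443 genes were called (3.52% of those tested), 216 higher (1.72%) and 227 lower (1.81%) in the Lhx2/Sox9 cells without Shh. Against the Krt79 cells 5506 were called (43.8%), 2796 higher (22.2%) and 2710 lower (21.6%), and against the resting basal IFE cells 4443 (35.3%), 2397 higher (19.1%) and 2046 lower (16.3%). With the mouse as a block, which pairs the sums of 1 animal, 782 genes were called against the cells with Shh. The groups were cut by genes measured in the same cells, so these counts say how the groups differ in both mice and are not independent evidence that they are separate kinds of cell. The p-values rest on the spread between the 2 mice within groups, pooled over all the groups of the fit and moderated over genes. The main fit did not pair the sums of 1 animal. All 3 comparisons share the sums of the Lhx2/Sox9 cells without Shh. The median log2 fold changes of all genes tested were 0.04, −0.00 and −0.01 against the cells with Shh, the Krt79 cells and the basal IFE cells, and those of each list below follow in this order.

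Of the follicle transcription factors, Tbx1 was among the 10 largest increases over genes of at least 50 CPM against each of the 3 other groups. Tbx1 (chromosome 16, 18580979 to 18590671, minus strand) stood at 106 and 108 CPM in the 2 mice, against 19.1 and 21.8 in the cells with Shh, 7.10 and 6.92 in the Krt79 cells and 0.544 and 0.710 in the resting basal IFE cells. Both mice lay above both mice of every other group, and the log2 fold changes were 2.37 ± 0.18 (SE, adjusted p = 5.94e-05), 3.93 ± 0.13 and 7.35 ± 0.18. A Tbx1 UMI was found in 50.1% and 48.8% of the cells, and in 18.4% and 18.2% of the cells with Shh although these were deeper. The share was 4.79% and 5.47% in cells with melanocyte UMIs. With every cell thinned to 3000 UMIs, which left out 3 cells, the shares were 27.4% and 26.2%.

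Tcf7l1, the member of the TCF/LEF family that follicle stem cells are known for and that mostly represses, was at 60.04 and 60.1 CPM against 19.1 and 21.8 with Shh (1.54 ± 0.21, adjusted p = 0.00212), 19.2 and 17.5 in Krt79 cells and 25.9 and 21.7 in basal IFE cells. Nfatc1, a calcineurin-controlled factor of the bulge, was at 76.7 and 68.6 against 33.04 and 19.4 with Shh (1.53 ± 0.21, adjusted p = 0.00236), 55.4 and 56.6 and 6.42 and 6.74. Nfatc1 was thus nearer to its level in the Krt79 cells (0.37) than to that in basal IFE cells (3.46). Barx2, a homeobox factor, was at 437 and 380.4 CPM against 127 and 88.4 with Shh and 107 and 72.4 in basal IFE cells, and at 496 and 371 in the Krt79 cells, where the mice of both groups overlapped. Without KO mouse 2 among the cells with Shh, neither Nfatc1 (1.19, adjusted p = 0.0648) nor Barx2 (1.74, adjusted p = 0.0558) was called against them.

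Other factors were lower than in the cells with Shh. Sox21, an HMG-box factor, was at 10.7 and 15.4 CPM against 119.97 and 89.6 (−2.96 ± 0.24, adjusted p = 7.83e-05), and Lef1, the TCF/LEF member of the hair matrix, at 30.6 and 37.1 against 104 and 122 (−1.75 ± 0.27, adjusted p = 0.00422). Lef1 was also lower than in the basal IFE cells (131 and 144). Hoxc13, a homeobox factor that controls hair keratin genes, was at 40.6 and 41.3 CPM, between the cells with Shh (74.8 and 119) and the basal IFE cells (1.41 and 2.13, 4.47 ± 0.25). Trps1 was at 30.6 and 30.1 and higher than in Krt79 cells (1.87) and basal IFE cells (4.20), and Hmga2, a chromatin protein of growing tissue, at 28.4 and 35.2 and higher than in Krt79 cells (2.57). Gata6, a factor of the upper follicle, was at 5.33 and 2.43 against 59.97 and 31.97 in Krt79 cells (−3.63). With either mouse left out of the cells with Shh, Lef1 was no longer called (without KO mouse 2: −1.56, adjusted p = 0.166).

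Of the 27 follicle transcription factors tested, 5 were higher and 6 lower than in the cells with Shh, 13 higher and 8 lower than in the Krt79 cells, and 16 higher and 3 lower than in the basal IFE cells. Their median log2 fold changes were −0.39, 0.43 and 1.35. In either direction 40.7%, 77.8% and 70.4% of them were called, against 3.52%, 43.8% and 35.3% of all genes.

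**Figure D2:**
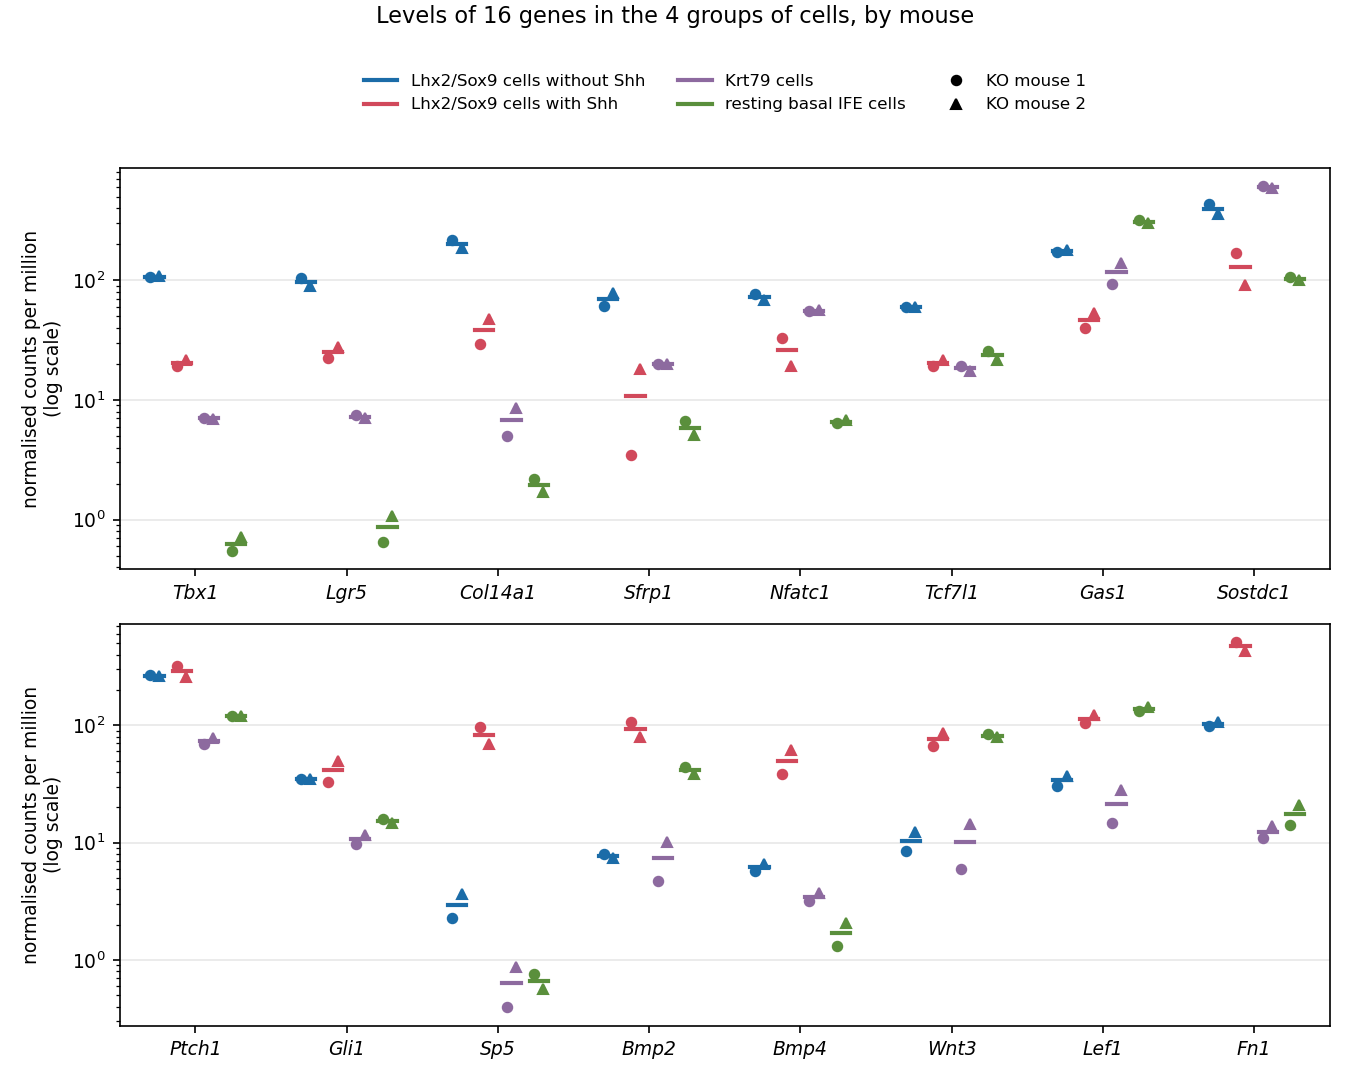
Normalised CPM (log axis) of 16 genes in the 4 groups of cells, with KO mouse 1 as circles, KO mouse 2 as triangles and the mean of both as a line. Tbx1, Lgr5, Col14a1, Sfrp1 and Tcf7l1 are highest in the Lhx2/Sox9 cells without Shh in both mice, Ptch1 and Gli1 are near their levels in the cells with Shh, and Sp5, Bmp2 and Bmp4 are highest in the cells with Shh.

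Among surface markers and keratins, Lgr5 (chromosome 10, 115450311 to 115587780, minus strand) ordered the groups as Tbx1 did. It was at 106 and 89.8 CPM against 22.6 and 27.8 with Shh (1.93 ± 0.21, adjusted p = 5.42e-04), 7.50 and 7.03 in Krt79 cells (3.75 ± 0.16) and 0.653 and 1.06 in basal IFE cells (6.74 ± 0.20). An Lgr5 UMI was found in 58.7% and 54.5% of the cells (27.2% and 22.6% after thinning), in 23.7% and 32.7% of the cells with Shh, and in 4.34% and 6.28% of the cells with melanocyte UMIs. Sostdc1, a secreted inhibitor of Bmp and Wnt signals, was at 433 and 363 against 170.4 and 90.8 with Shh (1.65 ± 0.21, adjusted p = 0.00129), and higher still in the Krt79 cells (618 and 588, −0.60). Ucp2, a carrier of the inner mitochondrial membrane, was at 461 and 457 against 199.96 and 203 (1.19), and higher than in both other groups (0.95 and 2.99). Cd200, a surface glycoprotein of bulge cells, was at 70.2 and 93.2 against 8.38 and 15.9 in basal IFE cells (2.71), and Il11ra1, a cytokine receptor chain, at 221 and 172 against 50.4 and 48.02 in Krt79 cells (2.00).

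Krt17 and Krt15 did not have their highest levels in these cells. Krt17 was at 2416 and 2484 CPM against 1869 and 2262 with Shh (0.24 ± 0.17, adjusted p = 0.562), was lower than in the Krt79 cells (5059 and 3229, −0.76 ± 0.17), and was higher than in the basal IFE cells (1278 and 1183, 0.99 ± 0.17, adjusted p = 9.73e-04). With the limit on mitochondrial UMIs at 5% the difference from the basal IFE cells fell to 0.01 (adjusted p = 0.994). Krt15, a keratin of the adult bulge and of neonatal basal KCs, was at 1322 and 1335 against 1452 and 1041 with Shh (adjusted p = 0.859) and was lower than in the Krt79 cells (3613 and 3161) and in the basal IFE cells (6859.6 and 5047, −2.16). The basal IFE cells were chosen by the basal keratins Krt5 and Krt14, with which Krt15 goes, so its difference from them is a description. Cd34, a marker of the adult mouse bulge, was hardly detected, with a UMI in 1.10% and 1.03% of the cells against 0.228% and 0.134% of the cells with melanocyte UMIs. Krt75, of the companion layer, was at 1.78 and 1.95 CPM against 31.7 and 18.1 in the Krt79 cells (−3.71). Of the 14 markers tested, 3 were higher and 1 lower than with Shh, 7 and 6 against the Krt79 cells, and 9 and 2 against the basal IFE cells, with medians of 0.49, 0.19 and 1.36. The shares called were 28.6%, 92.9% and 78.6%, against 3.52%, 43.8% and 35.3% of all genes.

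Ptch1 and Gli1, which rise in cells that receive Shh, were found in the Lhx2/Sox9 cells, whose own Shh UMIs were 0 by the rule. Ptch1, the receptor of Shh and itself a target of the pathway, was at 265 and 261 CPM, against 318 and 259 in the cells with Shh, and the mice of the 2 groups interleaved (−0.12 ± 0.12, adjusted p = 0.703). It was higher than in the Krt79 cells (68.5 and 78.6, 1.84 ± 0.11) and than in the basal IFE cells (119 and 119, 1.15 ± 0.11). Gli1, the transcription factor most directly induced by the pathway, was at 34.98 and 34.6 against 33.04 and 49.6 with Shh (adjusted p = 0.576), 9.73 and 11.5 (1.70 ± 0.16) and 15.99 and 14.8 (1.18 ± 0.15). A Ptch1 UMI was seen in 82.2% and 82.0% of the cells, against 26.9% and 32.3% of the cells with melanocyte UMIs.

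The co-receptors of Shh did not move one way. Gas1, a co-receptor that helps Shh bind, was at 172 and 181 CPM against 39.99 and 53.3 in the cells with Shh (1.89 ± 0.24, adjusted p = 0.00123) and lower than in basal IFE cells (322 and 299, −0.81). Cdon, another co-receptor, was at 6.68 and 6.12 against 33.7 and 31.1 in basal IFE cells (−2.34). It was not called against the cells with Shh or the Krt79 cells. Boc, a further co-receptor outside the rule for named genes, was at 21.5 and 21.7 against 11.4 and 10.6 in basal IFE cells (0.97). Boc was also higher than in the Krt79 cells (0.63) and was not called against the cells with Shh. Gli3, which acts mainly as the repressor of the pathway, was at 41.6 and 35.1 and higher than in the Krt79 cells (1.77). Of the 12 hedgehog pathway genes tested outside the rule, 10 were higher than in the Krt79 cells, and 6 were higher and 3 lower than in the basal IFE cells, with medians of 1.03 and 0.63, and the median against the cells with Shh was 0.27. The shares called against the cells with Shh, the Krt79 cells and the basal IFE cells were 16.7%, 83.3% and 75%. Those of all genes were 3.52%, 43.8% and 35.3%. With the mitochondrial limit at 5%, Gli1 (0.77, adjusted p = 0.0557) was no longer called against the basal IFE cells, and without KO mouse 1 among the cells with Shh neither was Gas1 against these (1.78, adjusted p = 0.0524).

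Most Wnt ligands were lower than in the basal IFE cells, and several were lower than in the cells with Shh. Wnt3 was at 8.46 and 12.3 CPM, against 66.1 and 85.9 in the cells with Shh (−2.87 ± 0.36, adjusted p = 0.00137) and 83.5 and 78.8 in basal IFE cells. Wnt10a, at 12.9 and 18.5, was likewise below the cells with Shh (62.6 and 95.6, −2.35 ± 0.34, adjusted p = 0.00314) and the basal IFE cells (109 and 107), and Wnt10b was at 3.24 and 2.57 against 27.8 and 16.9 (−2.91). All 3 are ligands of the canonical pathway, which acts through beta-catenin. Wnt4, a ligand made by epidermal KCs, was at 112 and 139 against 1018 and 968 in basal IFE cells (−2.98), and Wnt16 at 15.7 and 14.7 against 227 and 157 (−3.66). Wnt6 was one of 2 ligands that were higher than in the Krt79 cells, at 91.6 and 78.6 against 34.9 and 42.5. Of 11 ligands tested, 6 were lower than with Shh (median log2 fold change −2.19), 2 were higher and 2 lower than in the Krt79 cells (−0.21), and 1 was higher and 9 were lower than in the basal IFE cells (−2.76). The shares called were 54.5%, 36.4% and 90.9%, against 3.52%, 43.8% and 35.3% of all genes, so that against the Krt79 cells the ligands did not exceed the share of all genes. Without KO mouse 2 among the cells with Shh, Wnt3 (−2.59, adjusted p = 0.112) and Wnt10a (−1.91, adjusted p = 0.189) were no longer called against them, nor was Wnt10b without KO mouse 1 (−2.50, adjusted p = 0.0813).

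Among targets, receptors and inhibitors of the Wnt pathway, the target Sp5 was lower than in the cells with Shh, and the inhibitors did not move one way. Sp5, a zinc finger factor that beta-catenin signalling induces, was at 2.30 and 3.62 CPM against 95.6 and 68.99 with Shh, a log2 fold change of −4.74 ± 0.31 (adjusted p = 3.14e-05), although it was above the Krt79 cells (0.395 and 0.879) and the basal IFE cells (0.762 and 0.568). Sfrp1, a secreted protein that binds Wnt ligands, was at 60.9 and 78.4 against 3.48 and 18.2 with Shh (2.54 ± 0.37, adjusted p = 0.00336), 19.9 and 20.1 and 6.64 and 5.11. Sfrp2, of the same family, was lower than with Shh, at 1.04 and 1.11 CPM against 17.4 and 3.63 (−3.12 ± 0.74, adjusted p = 0.045), as was Wif1, another secreted Wnt inhibitor, at 2.82 and 2.71 against 5.22 and 26.6 (−2.64 ± 0.64, adjusted p = 0.0497). Both calls were lost with any 1 of the 4 sums left out, Sfrp2 most without KO mouse 1 of the cells with Shh (−1.68) and Wif1 most without their KO mouse 2 (−0.86). Sfrp2 was also not called with doublets removed (adjusted p = 0.0621) or with 6000 to 20000 UMIs per cell (0.0727). Wif1 was not with the mitochondrial limit at 5% (0.223) or with a single Shh UMI as the minimum for the cells with Shh (0.0893). Dkk3, of the Dickkopf family, was at 75.1 and 62.8 against 24.3 and 36.3 (1.14, no longer called without KO mouse 1 of the cells with Shh, 0.98, nor without their KO mouse 2), and higher than in both other groups (2.88 and 2.36). Its call against the cells with Shh was also lost with doublets removed (adjusted p = 0.0534), with the mitochondrial limit at 5% (0.132) and without KO mouse 1 of the cells without Shh (1.06). Axin2, the commonly used Wnt target, was at 15.2 and 12.9 against 24.3 and 36.3 with Shh (adjusted p = 0.0502) and was lower than in the Krt79 cells (−1.50). Ccnd1, cyclin D1, was at 317 and 356 and did not differ detectably from the cells with Shh (adjusted p = 1), but was higher than in the Krt79 cells (2.29). Fzd7, a Wnt receptor, was at 37.6 and 40.5 against 6.64 and 7.52 in basal IFE cells (2.45), and Fzd10, another, at 30.3 and 33.8 against 115 and 115 (−1.84). Of 28 genes tested, 5 were higher and 10 lower than with Shh, 14 and 4 against the Krt79 cells, and 14 and 6 against the basal IFE cells, with medians of −0.54, 0.41 and 1.09. The shares called were 53.6%, 64.3% and 71.4%, against 3.52%, 43.8% and 35.3% of all genes.

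The promoter of Sp5 is shown because Sp5 had the largest decrease among the genes of at least 50 CPM in the comparison with the cells with Shh. The 250 bases before its RefSeq start lie at chr2:70474673-70474922 (GRCm38.p6, plus strand). Capitals mark the letters CTTTGAT, the sequence that TCF/LEF factors are known to bind, which begins 104 bases before the start.
Sp5: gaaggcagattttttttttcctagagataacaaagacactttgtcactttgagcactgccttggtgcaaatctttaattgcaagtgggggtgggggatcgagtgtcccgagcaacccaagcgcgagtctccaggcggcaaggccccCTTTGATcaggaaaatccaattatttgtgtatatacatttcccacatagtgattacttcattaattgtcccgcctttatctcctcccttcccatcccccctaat

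CTTTGAT or its reverse complement ATCAAAG was found in 1053 of 32851 such windows of all RefSeq promoters (3.21%). Among the 10 genes that were lowest against the cells with Shh, 7 had a promoter in the table and only Sp5 held the letters, and among the 10 that were highest, 6 had one and none did. The GLI letters GACCACCCA (or TGGGTGGTC) were in 74 windows (0.225%) and in none of the 9 hedgehog pathway genes with a promoter in the table, Ptch1 among them. A match is a description of the sequence, and the absence of one says only that these letters are not in this window.

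Among genes of the Bmp and Tgf-beta pathways, 3 Bmp ligands were lower and Tgfb3 and Inhbb were higher than in the cells with Shh. Bmp2 was at 7.94 and 7.37 CPM, against 106 and 79.9 with Shh (−3.58 ± 0.30, adjusted p = 8.86e-05) and 44.3 and 38.7 in basal IFE cells (−2.44). Bmp4 was at 5.74 and 6.54 against 38.3 and 61.7 (−3.05 ± 0.29, adjusted p = 1.86e-04), and Bmp7 at 74.03 and 84.2 against 256 and 234 (−1.62 ± 0.12, adjusted p = 5.94e-05). In all 3 ligands both mice of the cells with Shh lay above both mice of the cells without. Tgfb3 was at 59.3 and 61.5 against 13.9 and 19.4 with Shh (1.82 ± 0.24, adjusted p = 0.00157), and was higher than in basal IFE cells by 3.83. Inhbb, a subunit of activin and inhibin, was at 12.01 and 13.8 CPM against 0 UMIs in both mice of the cells with Shh, where 3 UMIs would amount to 5.68 and 3.86 CPM. It was called (adjusted p = 0.0141), but not without KO mouse 1 (adjusted p = 0.0976) or KO mouse 2 (0.152) of the cells with Shh, with 6000 to 20000 UMIs per cell (0.0634) or with the mitochondrial limit at 5% (0.118). Tgfb2, known for its part in follicle formation, was at 95.1 and 83.9 CPM and higher than in basal IFE cells by 4.05, as was Ltbp1 (4.55), which binds latent Tgf-beta in the matrix. Of 23 genes tested, 3 were higher and 6 lower than with Shh, 8 and 7 against the Krt79 cells, and 10 and 6 against the basal IFE cells, with medians of 0.05, 0.07 and 0.38. The shares called were 39.1%, 65.2% and 69.6%, against 3.52%, 43.8% and 35.3% of all genes. With a single Shh UMI as the minimum for the cells with Shh, Tgfb3 was no longer called against them (0.95, adjusted p = 0.0992).

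Genes of the ectodysplasin and NF-kappaB pathway, which starts follicle placodes, were lower than in the cells with Shh in 5 of 9 cases. Tnfrsf19 (Troy), a receptor of this family, was at 31.8 and 35.2 CPM against 132 and 161 (−2.14 ± 0.19, adjusted p = 1.46e-04), and Relb, an NF-kappaB subunit, at 11.2 and 12.7 against 43.5 and 54.5 (−2.05 ± 0.20, adjusted p = 2.81e-04). Nfkbia, which holds NF-kappaB back and is also induced by it, was at 295 and 212 against 857 and 683 (−1.60), and was no longer called without KO mouse 1 of the cells with Shh (−1.38, adjusted p = 0.074). Edar, the receptor of ectodysplasin, was at 12.6 and 11.7 CPM against 36.5 and 36.3 with Shh (−1.58 ± 0.24, adjusted p = 0.00416), a value outside the rule for named genes that was chosen after it was seen, and this call was lost without KO mouse 1 of the cells with Shh (adjusted p = 0.0645), without their KO mouse 2 (0.0973) or with the mitochondrial limit at 5% (0.141). Edar was above both the Krt79 cells (5.39 and 3.85, 1.40) and the basal IFE cells (4.03 and 4.54, 1.49). Of the 9 genes, 5 were higher than in Krt79 cells, and 1 was higher and 7 were lower than in basal IFE cells, and the medians were −1.47, 0.54 and −0.72. The shares called were 55.6%, 55.6% and 88.9%, against 3.52%, 43.8% and 35.3% of all genes. With the mitochondrial limit at 5%, Edar was no longer called against the basal IFE cells (1.14, adjusted p = 0.0704).

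Among the Fgf genes, Etv4 had the largest increase against the Krt79 cells and Fgfr1 against the basal IFE cells. Etv4, an ETS factor induced by Fgf signals, was at 73.2 and 79.9 CPM against 52.2 and 72.6 with Shh (adjusted p = 0.763), 7.50 and 8.24 in Krt79 cells (3.28 ± 0.28) and 6.31 and 14.3 in basal IFE cells (2.84 ± 0.25). Fgfr1, an Fgf receptor, was at 148 and 136 against 11.4 and 12.1 in basal IFE cells (3.58 ± 0.12). Pdgfa, a growth factor that epithelium sends to the dermis, was at 589.5 and 601 against 1593 and 1471 with Shh (−1.36 ± 0.11, adjusted p = 6.59e-05). The receptor Notch1 was at 38.9 and 55.97, lower than in Krt79 cells (−1.71) and than in basal IFE cells (−1.70). Its modifier Lfng was at 50.01 and 56.5 and higher than in Krt79 cells (1.47). Of 14 Fgf and Egf genes 1 was higher and 3 lower than with Shh, 9 and 4 against Krt79 cells, and 5 and 5 against basal IFE cells, with medians of −0.17, 0.73 and 0.14. Of 9 Notch genes 1 was lower than with Shh, 3 were higher and 5 lower than in Krt79 cells, and 4 were lower than in basal IFE cells, with medians of 0.07, −0.62 and −0.45. The shares called were 28.6%, 92.9% and 71.4% of the Fgf and Egf genes and 11.1%, 88.9% and 44.4% of the Notch genes. Those of all genes were 3.52%, 43.8% and 35.3%. Notch1 was the gene lower than with Shh (−0.94), and was not called with either mouse left out of the cells with Shh (without KO mouse 2: −0.89, adjusted p = 0.239).

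Matrix genes were widely higher than in the Krt79 cells. Of 26 tested, 22 were higher and 1 was lower there (median log2 fold change 1.42), 8 were higher and 13 lower than in the basal IFE cells (−0.45), and 4 were higher and 3 lower than with Shh (0.10). In this order 88.5%, 80.8% and 26.9% were called, against 43.8%, 35.3% and 3.52% of all genes. Fn1, fibronectin, was at 98.6 and 107 CPM, below the cells with Shh (511 and 427, −2.19 ± 0.16, adjusted p = 5.94e-05) and above the Krt79 cells (11.05 and 13.7, 3.04) and basal IFE cells (14.3 and 21.1, 2.52). Lamb1, a laminin chain of the basement membrane, was at 53.4 and 50.8 against 4.08 and 4.83 in Krt79 cells (3.53 ± 0.16). Egfl6, a protein of the follicle basement membrane, was at 23.9 and 17.7 against 6.96 and 1.21 with Shh, 2.76 and 3.41 and 0.435 and 0.639. Sparc, Thbs1 and Postn, which encode secreted proteins of the matrix, were lower than in basal IFE cells (−2.51, −1.88 and −1.64). Dcn, decorin, was at 157 and 247 against 683 and 698 with Shh (−1.77). Of these, Egfl6 (without KO mouse 2: 1.63, adjusted p = 0.285) and Dcn (without KO mouse 2: −1.70, adjusted p = 0.217) were no longer called against the cells with Shh with either mouse of these left out.

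Adhesion genes were mostly lower than in the Krt79 cells, with 4 of 20 higher and 13 lower (median −1.12). Against the basal IFE cells 6 were higher and 10 lower (−0.58), and against the cells with Shh 1 was higher and 1 lower (−0.08). In this order of the 3 comparisons 85%, 80% and 10% were called, against 43.8%, 35.3% and 3.52% of all genes. Of all genes 22.2% were higher than in the Krt79 cells. Cadm1, an immunoglobulin-type adhesion molecule, was at 99.4 and 92.4 CPM against 189.5 and 163 with Shh, 20.4 and 21.1 in Krt79 cells (2.21) and 27.7 and 26.8 in basal IFE cells (1.81). The genes counted against the cells with Shh were Cadm1, lower, which was not called without KO mouse 1 of those cells (−0.71, adjusted p = 0.0539) or with the mitochondrial limit at 5% (−0.64, adjusted p = 0.197), and Perp, higher, which was not called without their KO mouse 2 (0.48, adjusted p = 0.18). Ncam1, the neural cell adhesion molecule, was at 99.6 and 78.7 against 3.81 and 3.26 in basal IFE cells (4.66 ± 0.25). The desmosomal plaque gene Pkp1, the tight junction gene Cldn1 and the desmoplakin gene Dsp were lower than in basal IFE cells (−2.03, −1.98 and −1.25). The gap junction gene Gjb2 was lower than in Krt79 cells (−3.31).

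Among genes of the inner root sheath, companion layer and hair shaft, Krt35, a hair shaft keratin, was at 1.67 and 3.41 CPM against 36.5 and 30.3 in the cells with Shh (−3.63 ± 0.52, adjusted p = 0.0027), and Krt71, of the inner root sheath, at 17.8 and 16.3 against 3.02 and 6.26 in Krt79 cells and 1.31 and 5.25 in basal IFE cells. Of 11 such genes, 1 was lower than with Shh (4 at an unadjusted p under 0.05 and 2 by DESeq2), 1 was higher and 5 lower than in Krt79 cells, and 1 was higher and 1 lower than in basal IFE cells, with medians of −1.30, −0.81 and 0.53. The shares called were 9.09%, 54.5% and 18.2%, against 3.52%, 43.8% and 35.3% of all genes. With either mouse left out of the cells with Shh, Krt35 was no longer called (without KO mouse 2: −3.72, adjusted p = 0.0871). Of 13 upper follicle and sebaceous genes tested outside the rule, 12 were lower than in the Krt79 cells (median −5.28), which were chosen by a gene of that list. Mgst1, a glutathione transferase of sebocytes, was at 10.4 and 10.4 CPM against 1451 and 1244, and Scd1, a fatty acid desaturase, at 10.3 and 7.65 against 1126 and 822. Against the cells with Shh 0 of the 13 were called by edgeR and 0 by DESeq2, and 2 had an unadjusted p under 0.05, both higher (median of the list 0.74). Against the basal IFE cells 2 were higher and 2 lower (−0.38). These were 30.8% of the list, near the 35.3% of all genes, whereas 92.3% of the list and 43.8% of all genes were called against the Krt79 cells. Prdm1, a repressor linked to sebaceous precursors, was at 14.4 and 12.1 against 0.435 and 0.497 in basal IFE cells (4.76).

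All 12 tested genes on the list of resting basal IFE genes were lower than in the basal IFE cells, with a median log2 fold change of −2.34. H19, a noncoding RNA, was at 29.97 and 31.4 CPM against 641 and 672 (−4.42 ± 0.43), and its neighbour Igf2, an insulin-like growth factor, at 6.89 and 6.19 against 124 and 112 (−4.18 ± 0.34). Col17a1, a collagen of the hemidesmosome, was at 176 and 155 against 586 and 408, with 97.4 and 77.5 in the cells with Shh. Against the cells with Shh 2 genes of this list were higher and 1 lower (median 0.30), and against the Krt79 cells 3 were higher and 3 lower (−0.34). The share called against the Krt79 cells, 50%, was near the 43.8% of all genes. Against the cells with Shh it was 25%, where that of all genes was 3.52%, and 16.3% of all genes were lower than in the basal IFE cells. The 2 higher than with Shh were Col17a1 and Postn, and neither was called with either mouse of the cells with Shh left out (without KO mouse 2: 0.82, adjusted p = 0.279, and 0.96, adjusted p = 0.18). The basal IFE cells had themselves been chosen by Krt5 and Krt14 and by the lack of follicle genes, so the 12 decreases, that of Krt15 among them, are a description. Genes of suprabasal differentiation, near the limits on Krt1 and Krt10, are described by their medians alone, which were 0.58, −2.11 and −1.14.

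The cells carried more S phase transcripts than the Krt79 and basal IFE cells. All 25 S phase genes tested were higher than in the Krt79 cells (median 1.82) and all 25 than in the basal IFE cells (1.20), while against the cells with Shh (0.19) 0 were called by edgeR or DESeq2 and 2 had an unadjusted p under 0.05. Of all genes, 22.2% were higher than in the Krt79 cells and 19.1% than in the basal IFE cells. Uhrf1, which keeps DNA methylation through replication, was at 117 and 121 CPM against 122 and 122 with Shh, 19.3 and 24.3 in Krt79 cells (2.45 ± 0.14) and 39.7 and 48.7 in basal IFE cells (1.43 ± 0.13). Rrm2, a subunit of ribonucleotide reductase, was higher than in basal IFE cells by 2.09, and Cdc6, which licenses replication origins, than in Krt79 cells by 2.40. All groups had the same limit on 3 G2/M genes, which removed cells late in the cycle. The other G2/M genes are described only, with medians of 0.36, 1.70 and 1.43. Mki67, a marker of cycling cells, was at 110.3 and 88.2 CPM, against 81.7 and 90.8 in the cells with Shh, 22.2 and 24.5 in the Krt79 cells and 25.8 and 29.7 in the basal IFE cells.

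Immediate early genes, which also rise during tissue dissociation, were lower than in the basal IFE cells for 13 of 14 genes tested (median −1.34), where 16.3% of all genes were lower. Against the Krt79 cells 4 were lower (28.6%, median −0.48), near the 21.6% of all genes. Against the cells with Shh (−0.08) 0 were called by edgeR or DESeq2 and 2 had an unadjusted p under 0.05. Fos was at 276 and 109.7 CPM in KO mouse 1 and KO mouse 2 against 1309.6 and 730.1, and Atf3 at 42.7 and 13.5 against 313 and 124. Both genes were higher in KO mouse 1 than in KO mouse 2 in both groups. The skin had been kept overnight in a separation buffer, and the part of that step in these values was not tested.

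**Figure D3:**
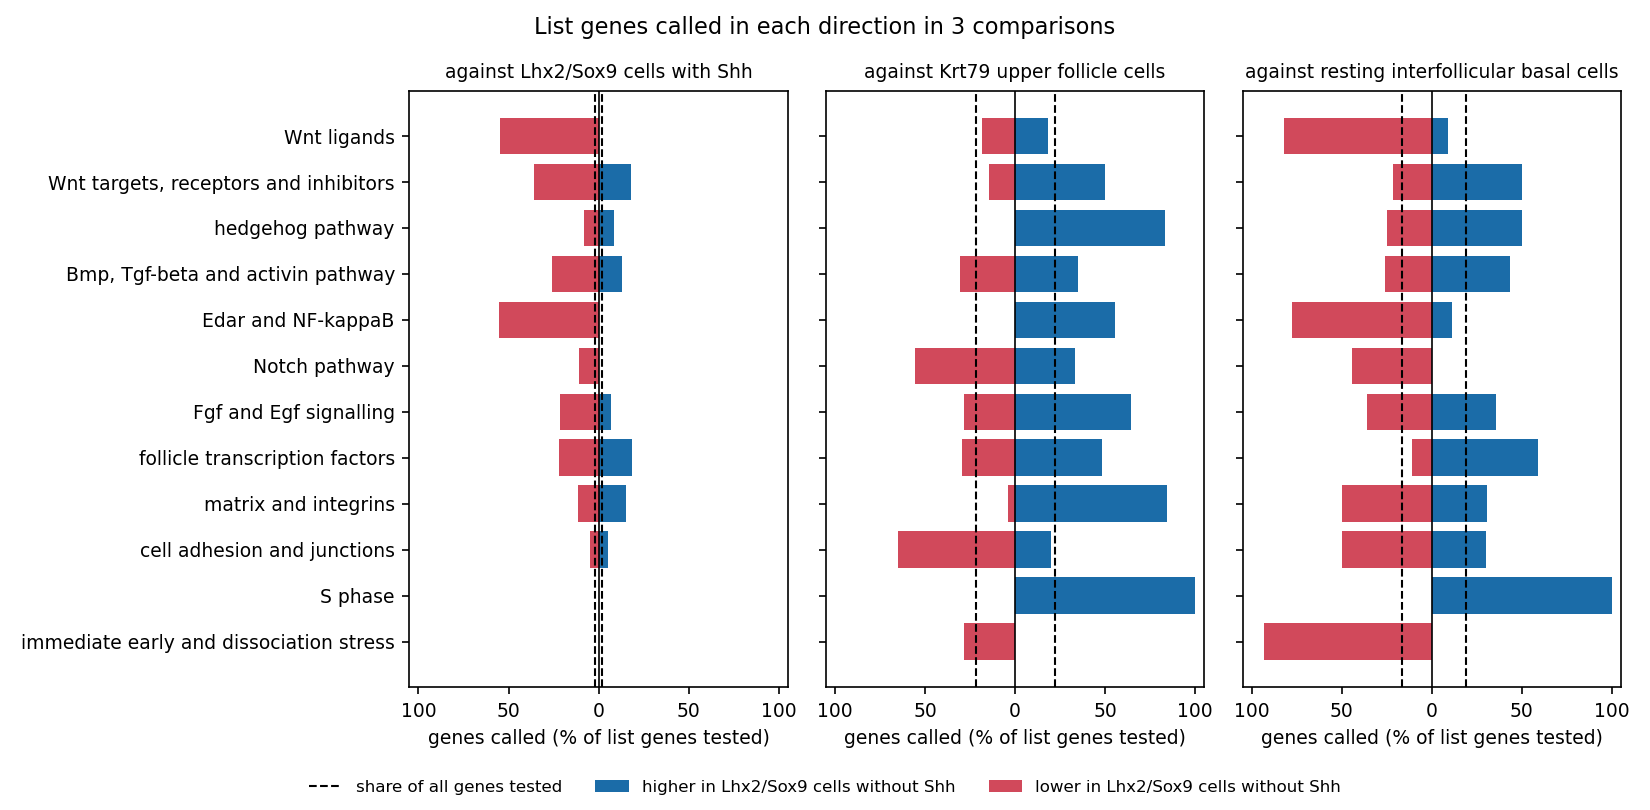
Share of the tested genes of 12 lists (% of the list, horizontal axes) that were called higher (blue, to the right) or lower (red, to the left) in the Lhx2/Sox9 cells without Shh in each of 3 comparisons, with the share of all 12569 genes as dashed lines. Against the cells with Shh 6 of 11 Wnt ligands are lower, and against the other 2 groups all 25 S phase genes are higher.

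Over all genes of at least 50 CPM, those with the largest differences were partly outside these lists. The largest increases against the cells with Shh were Sfrp1, Anxa8 (99.1 and 96.8 against 12.2 and 21.8), Cpxm1 (87.8 and 88.7 against 12.2 and 19.4), Tbx1, Col14a1 (218 and 186 against 29.6 and 47.2), S100a6 (952 and 1147 against 162 and 304), Cbs, Cdc42ep3, Gclc and Barx2, with log2 fold changes from 1.95 to 2.54. Col14a1 encodes a fibril-associated collagen, Anxa8 an annexin, S100a6 a calcium-binding protein, and Gclc the catalytic subunit of the enzyme that begins glutathione synthesis. The largest decreases were Sp5, Bmp2, Slc40a1 (15.7 and 9.66 against 141 and 78.7), Sox21, Robo1 (19.4 and 16.1 against 136 and 127), Wnt3, Tjp1 (22.6 and 19.95 against 153 and 91.99), Cygb, Qrfp and Mycl (22.2 and 23.2 against 136 and 107), from −4.74 to −2.39. Slc40a1 encodes the iron exporter ferroportin, Robo1 a receptor of Slit proteins, and Tjp1 the tight junction protein ZO-1. Without KO mouse 1 among the cells with Shh, Cbs (1.68, adjusted p = 0.0661) and Slc40a1 (−2.60, adjusted p = 0.063) were no longer called against them, and without KO mouse 2 Barx2 (1.74, adjusted p = 0.0558), Wnt3 (−2.59, adjusted p = 0.112) and Cygb (−2.23, adjusted p = 0.074) were not. The other 15 of these 20 genes were called with any 1 of the 4 sums of this comparison left out. Among the genes counted in the lists above, Msx2, Fgfr1, Spry1, Dusp6 and Col18a1 were also no longer called against the cells with Shh with either mouse of these left out (adjusted p from 0.0974 to 0.313).

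Against the Krt79 cells the largest increases were Col14a1 (4.997 and 8.57 in Krt79 cells, 4.87 ± 0.21), Prss35, Igfbp7 (124 and 110.3 against 5.79 and 8.57), Tbx1, Lgr5, Lamb1, Etv4, Cpxm1, Bgn (104.6 and 102 against 13.02 and 11.9) and Bnc2. Igfbp7 binds insulin-like growth factors, and Bgn is the matrix proteoglycan biglycan. The 10 largest decreases included Cidea (1.78 and 1.11 against 672 and 516, −8.73 ± 0.24), a lipid droplet protein, and Fa2h (0.418 and 0.487 against 263 and 222), the fatty acid 2-hydroxylase. Against the basal IFE cells the largest increases were Tbx1, Lgr5, Col14a1, Sema3e (58.5 and 47.3 against 1.20 and 0.284), Mycn (55.3 and 51.5 against 1.09 and 1.63, 5.23 ± 0.20), Prss35, Abi3bp, Adamts17, Igfbp7 and Ncam1. Sema3e is a secreted guidance protein and Mycn a growth-promoting factor of the Myc family. The largest decreases, after H19 and Igf2, were Igfbp2 (9.92 and 9.73 against 175 and 159.7, −4.09 ± 0.19), Ahnak2, Stfa1, Wnt16, Ackr4, Aqp3 (8.56 and 10.4 against 139.7 and 98.9), Ifngr1 (10.1 and 8.34 against 138 and 82.2) and BC100530. Aqp3 is the water and glycerol channel of basal KCs, and Ifngr1 a chain of the interferon-gamma receptor.

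The Lhx2/Sox9 cells without Shh were not uniform. Clustering of the 1981 cells, with the genes of the rule left out, gave 11 sub-clusters of 18 to 332 cells, each with cells of both mice. The sub-clusters were formed from these genes, so their levels describe the clusters and were not tested. No sub-cluster was given the name of a cell type.

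Sub-clusters 1 (332 cells), 2 (330) and 10 (51) held the highest levels of Nfatc1. It was at 161, 118 and 111 CPM in them, with both mice summed, and between 22.5 and 68.1 in the other 8. Krt15 was at 2322, 1999 and 3275, and was as high only in sub-clusters 9 (3011) and 11 (2453). Sub-cluster 1 was led by Robo2 (93.4 CPM against 11.6 in the other cells), Sgk1, the neurotrophin gene Bdnf, Postn and Ncam1. Sub-cluster 2 was led by Tgfb2 (258 CPM against 65.2) and Abi3bp, and sub-cluster 10 by Trps1 (459 CPM against 22.4) and Sfrp1 (769 CPM against 59.3), with Tbx1 at 410.0. Krt8, of the Merkel cell markers, was also among the leading genes of sub-cluster 10 (70.5 CPM against 1.40). Sub-clusters 1, 2 and 10 were also the shallowest, with medians of 7520, 8653 and 6731 UMIs, and held 20%, 16.3% and 2.45% of KO mouse 1's cells and 14.5%, 16.9% and 2.66% of KO mouse 2's. Mki67 was at 8.65 CPM in sub-cluster 1, the lowest of the 11, and at 35.9 and 25.6 in the other two.

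Sub-cluster 3 (317 cells) was led by Tagln (114 CPM against 2.08) and Acta2, genes of contractile actin filaments, and by Foxe1, a forkhead factor. Tagln was at 169.5 and 75.2 CPM in KO mouse 1 and KO mouse 2 and Acta2 at 101 and 2.51, so that Acta2 came nearly all from 1 mouse, whereas Foxe1 (49.8 and 73.99) was in both. Lgr5 was at 164 CPM and Vdr, the vitamin D receptor, at 176, with Tbx1 at 197.

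Sub-clusters 5 (207 cells) and 7 (115) were the low end for Tbx1, at 7.59 and 5.43 CPM, and the high end for Ptch1, at 410.2 and 383. Sub-cluster 7 was led by Dcn (1383 CPM against 149), Gxylt2, Fn1 (553 CPM against 80.4) and Lef1. Its Lef1 (139.6), Wnt3 (43.4), Bmp2 (45.7) and Edar (38.8) were the highest of the 11 sub-clusters, and its Lgr5 (20.2), Nfatc1 (22.5) and Barx2 (40.3) the lowest. All 7 of these genes were also called between the cells with and without Shh, and in each of them sub-cluster 7 lay on the side of the cells with Shh, although its own cells held no Shh UMI. The 7 genes were chosen after their levels in sub-cluster 7 were seen, so this is a description and no test. As given above, the calls of Lef1, Wnt3, Edar, Nfatc1 and Barx2 were lost with a mouse of the cells with Shh left out. Sub-cluster 5 was led by Ccer2 (783 and 3.99 CPM in KO mouse 1 and KO mouse 2), the hyaluronan synthase gene Has3 and Vcan, and kept Sostdc1 at 586.

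Sub-clusters 4 (217 cells) and 8 (110) were led by genes of the cell cycle. Replication-dependent histone genes such as Hist1h1b (2443 CPM against 130.5) led sub-cluster 4, whose Mki67 was at 331, and Cenpa (409 CPM against 30.7) and Cdc20 led sub-cluster 8. Dct and Pmel, melanocyte genes, were also among the leading genes of sub-cluster 4 (Pmel at 82.00 CPM against at most 6.23 elsewhere), which had the most UMIs per cell after sub-cluster 9 (median 13855) and 17 called doublets (7.83%). Sub-cluster 6 (180 cells) was led by late cornified envelope genes such as Lce1m (164 CPM against 4.92) and by Lor, in both mice. The 18 cells of sub-cluster 11 were led by Krt6a (789 CPM against 1.17) and had Krt17 at 14524 CPM.

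Sub-cluster 9 (104 cells) stood apart. It was led by Cd74 (214 CPM against 1.88), H19, Tyrobp and the stefin genes, with Langerhans cell and basal IFE genes beside Lhx2 and Sox9. Its median of 18538 UMIs was the highest, 60 of its cells (57.7%) were called doublets, and it took 3.19% of KO mouse 1's cells and 6.69% of KO mouse 2's. Without these cells 484, 5618 and 4651 genes were called in the 3 comparisons, and Wif1 (−2.57, adjusted p = 0.0503), Col17a1 (0.84, adjusted p = 0.0534) and Postn (0.70, adjusted p = 0.0585) were no longer called against the cells with Shh.

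**Figure D4:**
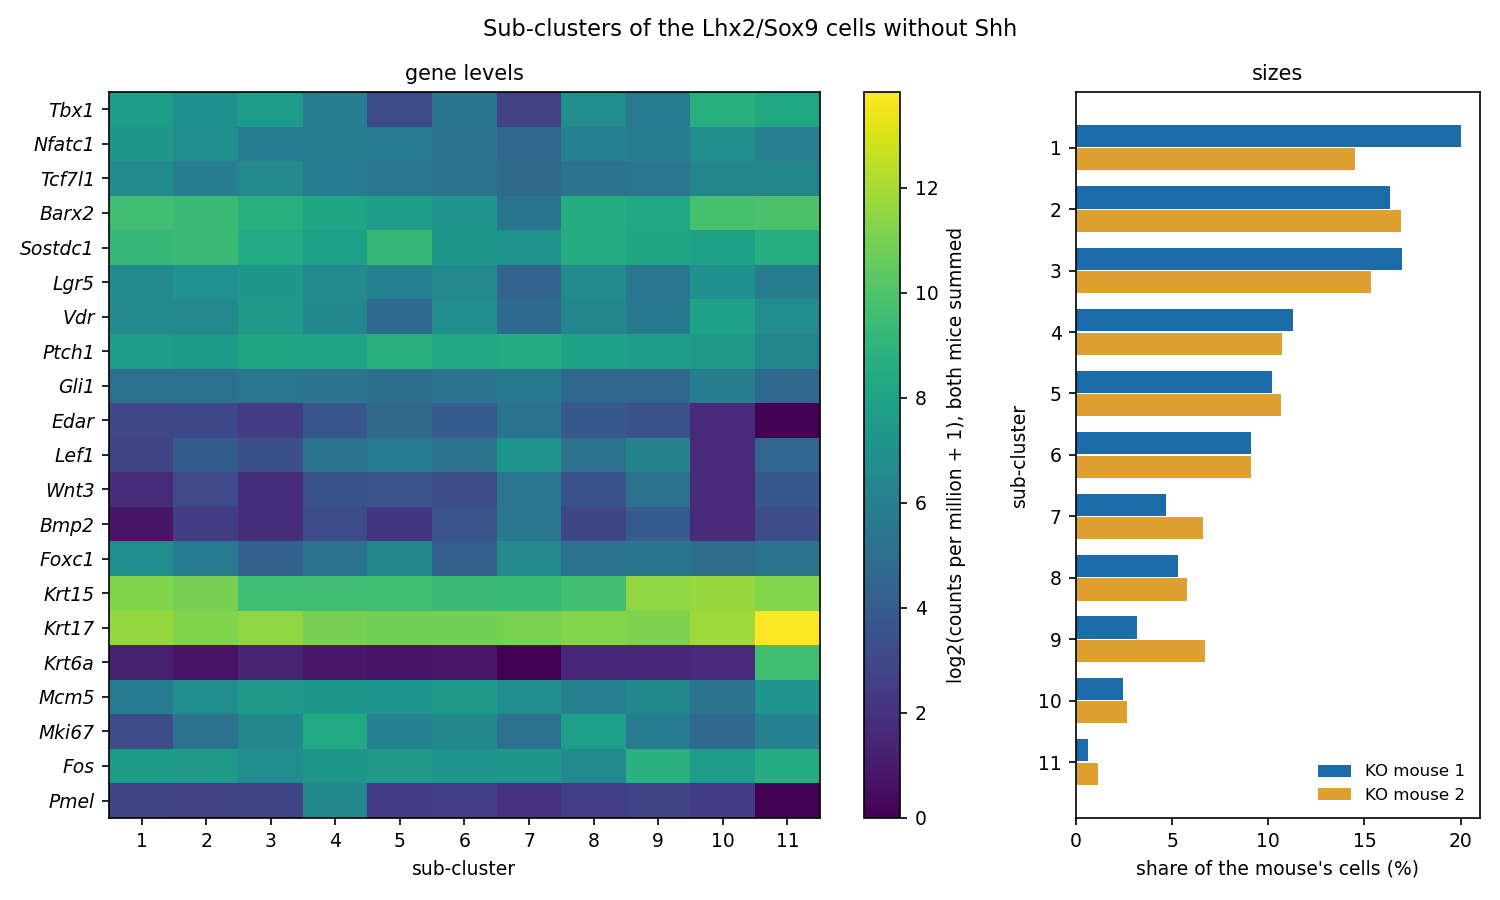
Levels of 21 genes (log2 of CPM plus 1, colour, both mice summed) in the 11 sub-clusters of the Lhx2/Sox9 cells without Shh, and the share of each mouse's cells in each sub-cluster (%, bars from 0). Tbx1 is low in sub-clusters 5 and 7, Lef1, Wnt3 and Bmp2 are highest in sub-cluster 7, and each sub-cluster holds cells of both mice.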

How the data were processed

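Epidermal cell suspensions of 2 Chrm3 KO mice at postnatal day 0 were sequenced as 1 single-cell library each. The authors made the deposited UMI counts per gene and barcode with Cell Ranger 3.0.2 against mm10 (submitters' processing notes), without normalisation. The libraries held 10816 and 15867 barcodes (109756784 and 166441732 UMIs), of which 7607 and 11881 passed the filter on cells (900 to 7700 genes, mitochondrial UMIs under 10%). Doublets were scored with Scrublet in scanpy 1.11.5 and not removed. Its automatic threshold called 1 cell in KO mouse 1, so that of KO mouse 2 (0.212) served both.

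Members, gene lists and comparison groups were chosen with earlier results of these data known. UMI counts were summed per mouse and group, and 8 sums entered 1 fit of edgeR 4.0.16 (R 4.3.3; TMM, filterByExpr, glmQLFTest, Benjamini-Hochberg over all 12580 genes tested, 4 residual degrees of freedom). Genes of the rules were not called. The sums of 1 animal pair the groups. Deviations of the sums of the same mouse from the group means correlated at 0.0664 to 0.233 over the 6 pairs of groups (median 0.109). In simulated counts with 200 changed genes, log2 changes of 1 and 2 were recovered in 55% and 93% against the cells with Shh, 97% and 100% against Krt79 cells, and 99% and 100% against basal IFE cells, so that smaller changes from the cells with Shh could be missed. The changed genes were drawn only from genes above a minimum of expected UMIs in the smallest sum, so these shares do not cover genes with fewer UMIs. A shift common to the sums of 1 mouse was not simulated.

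Named genes were, for each list and comparison, up to 3 called genes per direction with the largest fold change and at least 10 CPM in either group, and over all genes the 10 per direction with at least 50 CPM, each moved the same way in both mice, besides genes named with their values although not called. The 10 genes that differed between mice and the leading genes of sub-clusters were chosen after their values were seen. Of the 368 listed genes, 366 were found. Sub-clusters came from 2000 variable genes without those of the rule, 20 principal components and Leiden clustering (leidenalg 0.10.2) at resolution 0.5. Positions are those of GENCODE M21 (GRCm38), which held 27722 of 27998 genes, and promoters those of RefSeq (GRCm38.p6). Alternatives were DESeq2 1.42.0 and its size factors, no filter on low counts, the mouse as a block, each sum or mouse left out, doublets removed, 6000 to 20000 UMIs per cell, a mitochondrial limit of 5%, and other limits for each group. Removing cells with melanocyte UMIs, shared barcodes or sub-cluster 9 was added after the data were seen. A result that met the rule for named genes is not reported here.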

Additional observations from a re-analysis of the deposited data

Results flagged for a closer look

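Of the barcodes that the filter on cells had removed, 40 met the rest of the rule, 20 in each mouse, and all had at least 10% mitochondrial UMIs. Their summed CPM in KO mouse 1 and KO mouse 2 were 1662 and 2262 for Krt17, 112 and 57.4 for Tbx1 and 82.6 and 38.2 for Lgr5. They were flagged as signal in barcodes that no comparison used.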

How the results depend on the processing

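The share of Lhx2/Sox9 cells without Shh among cells kept, 10.3% on average over the mice, was 12.6% with at least 2 Lhx2 UMIs, 6.19% with at least 5, 6.94% with at least 2 Sox9 UMIs, 1.83% after thinning to 3000 UMIs and 14.1% with a mitochondrial limit of 5%, and 9.81% to 10.7% in single mice. Against the cells with Shh 443 genes were called, and separate fits called 951 without the filter on low counts, 782 with the mouse as a replicate block, 158 with the mitochondrial limit of 5%, 616 with DESeq2, and 114 to 283 with 1 sum left out, the lowest counts being without KO mouse 1 (114) or KO mouse 2 (126) of the cells with Shh. Against the Krt79 cells (5506) leaving out 1 sum gave 3936 to 5030 calls. Against the basal IFE cells (4443) it gave 2889 to 3434, and the mitochondrial limit of 5% gave 1838. The replicate block changed the call of none of the 59, 87 and 90 genes followed in the 3 comparisons. The self-test recovered fewer genes against the cells with Shh, whose sums were the smallest. Clustering gave 6 sub-clusters at resolution 0.3 and 12 at 0.8 in place of 11. Krt15, not called against the cells with Shh (0.10), changed sign without doublets (−0.017), with 6000 to 20000 UMIs per cell (−0.16), with the mitochondrial limit of 5% (−0.13) and without sub-cluster 9 (−0.071), and ranged from −0.14 to 0.41 with a mouse or a sum left out. Postn changed sign against the Krt79 cells with 6000 to 20000 UMIs per cell (−0.080). The causes were not tested.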
